A study of Mus musculus with 2 samples.

Results

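The genes described here are the 8 members of the network around the transcription factor MAX that carry the names *Myc*, *Mycn*, *Max*, *Mxd1*, *Mxd3*, *Mxd4*, *Mxi1* and *Mnt*. They were taken by symbol from the 27998 genes of the count matrix, and all 8 had counts. Their transcripts were followed across erythroid differentiation in the liver of C57BL/6 mouse embryos at e13.5, where red cells are made before birth. CITE-seq was used, a method that reads the transcripts of a cell together with barcoded antibodies on its surface. For 7863 cells, both 1 cDNA library and 1 antibody library were read. Embryos had been pooled. Ter119+ cells had been depleted and then returned in a number equal to that of the Ter119- cells, so the numbers of cells per stage are not those of the tissue. There were no treated or mutant animals and no second library, and all statements on error below concern the counting of molecules only.

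Stages were set from the antibodies alone. Ter119, a surface protein of maturing red cells, and CD71, the transferrin receptor, define an order in which CD71 is gained first, Ter119 is gained next and CD71 is lost last. Cells low for Ter119 were divided by CD71 into S0-low (1510 cells), S0-medium (1054 cells) and S1 (612 cells). Cells with intermediate Ter119 and high CD71 formed S2 (1299 cells). Cells high for Ter119 were divided into S3, with high CD71 (838 cells), and S4/S5, with low CD71 (898 cells). Cells with high signal from 5 antibodies to other blood lineages were left out.

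MYC and MYCN are transcription factors that bind DNA as dimers with MAX and drive growth, ribosome production and cell division. The MXD proteins, MXI1 and MNT also dimerise with MAX, bind the same DNA motif and recruit corepressors, so they oppose MYC at shared target genes. MAX is the partner that both arms share. In many tissues the network is known to pass from MYC to MXD proteins as progenitors leave proliferation and mature, and forced MYC expression is known to block the maturation of erythroid cells.

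On GRCm38.p6 (mm10), the build of the count matrix, *Myc* lies on chromosome 15 from 61985341 to 61990361 and *Mycn* on chromosome 12 from 12936093 to 12941836. *Max* lies on chromosome 12 from 76937269 to 76962323. *Mxd1* lies on chromosome 6 from 86647044 to 86669234, *Mxd3* on chromosome 13 from 55325170 to 55329900 and *Mxd4* on chromosome 5 from 34176580 to 34187710. *Mxi1* lies on chromosome 19 from 53310128 to 53373293, and *Mnt* lies on chromosome 11 from 74830806 to 74845725. The library counts 3′ ends over whole genes, so transcripts from different promoters of a gene cannot be told apart, and levels are compared between cells for 1 gene and not between genes.

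The motif bound by MYC and MXD dimers with MAX is the E-box CACGTG, which reads the same on both strands. It was searched in RefSeq promoter windows of 300 bases (250 before and 50 after a transcript start, GRCm38.p6). Windows of 7 members were used, all but *Myc*, and 3 of the 7, *Mxd4*, *Mnt* and *Max*, held an E-box in a window, against 8.09% of all 27025 genes with a window. The stretches of 30 bases are shown because they place the network's own binding motif at its members. Each is written 5′ to 3′ along the gene, with the E-box in capitals.
Mxd4 (chr5:34187912-34187941, minus strand): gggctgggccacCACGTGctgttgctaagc
Mnt (chr11:74830789-74830818, plus strand): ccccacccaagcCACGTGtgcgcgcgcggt
Max (chr12:76962234-76962263, minus strand): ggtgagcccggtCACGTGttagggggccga
The E-box begins 219 bases before the transcript start of the window in *Mxd4*, 123 before it in *Mnt* and 3 before it in *Max*. In *Mnt* and *Max* that transcript start lies inside the gene span given above, so these distances are not from the outer end of the gene. The E2F motifs TTTGGCGC and TTTCGCGC were found, with overlap, in the window of 1 member, *Mycn*, against 0.585% and 0.374% of these genes. The GATA motif AGATAA and the KLF motif CCACACCC, searched on both strands, were in the windows of 0 members, against 12.7% and 4.09% of these genes. Such matches describe letters in a window and show no binding.

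Of the 7863 cells, 7244 passed the filters and 6211 fell in a stage. The median number of unique molecules (UMIs) per cell went from 10282 in S0-medium and 10151.5 in S1 to 3949 in S4/S5, while the globin share of UMIs went from 1.05% in S0-low to 64.0% in S4/S5. Levels are therefore given in CPM (UMIs of a gene per 1000000 UMIs of the cell, averaged over cells) and, where it matters, in non-globin CPM (per 1000000 UMIs that are not of globin genes). S0-low and S4/S5 are mixed by their transcripts: 44.9% of S0-low cells lay in clusters named from markers as myeloid-like, megakaryocyte-like, hepatocyte-like or macrophage-like, and 44.3% of S4/S5 cells lay in a cluster led by the embryonic globin genes *Hbb-y* and *Hba-x*, against 7.28% of S3 cells. The largest myeloid-like cluster (569 cells) also carried *Cd34*, *Plac8* and *Ifitm1* among its leading genes.

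The network changed its composition by stage in CPM: *Myc* was highest in S0-low and lower at each step through S3, *Mxd3* was highest in S2 and S3, and *Mxd1* was highest in S3 and S4/S5. A member was counted as higher or lower when its mean CPM differed by at least 1.5 fold, with at least 50 UMIs in both stages together. From S0-low to S1, 2 of 8 members were higher (*Mxd1* and *Mxd3*), against 8.05% of the 9569 genes compared, and 3 were lower (*Myc*, *Mycn* and *Mxd4*), against 32.4%. From S1 to S2, 2 of the 5 members with enough UMIs were higher (*Mxd1* and *Mxd3*), against 5.23% of 8209 genes, and 1 was lower (*Myc*), against 38.9%.

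From S2 to S3, 1 of 5 members was higher (*Mxd1*), against 3.9% of 7595 genes, and 2 were lower (*Myc* and *Max*), against 63.7%. From S3 to S4/S5, 0 of 5 members were higher, against 1.06% of 5546 genes, and 2 were lower (*Mxd3* and *Mxi1*), against 72.5%. Most genes were thus lower in CPM at the late steps, where globin takes up the library, and the late counts of lower members are below the shares over all genes. The median CPM ratio of all genes was 0.84 from S0-low to S1, 0.733 from S1 to S2, 0.588 from S2 to S3 and 0.532 from S3 to S4/S5. In non-globin CPM these medians were 0.861, 0.844, 0.826 and 0.882.

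**Figure D1:**
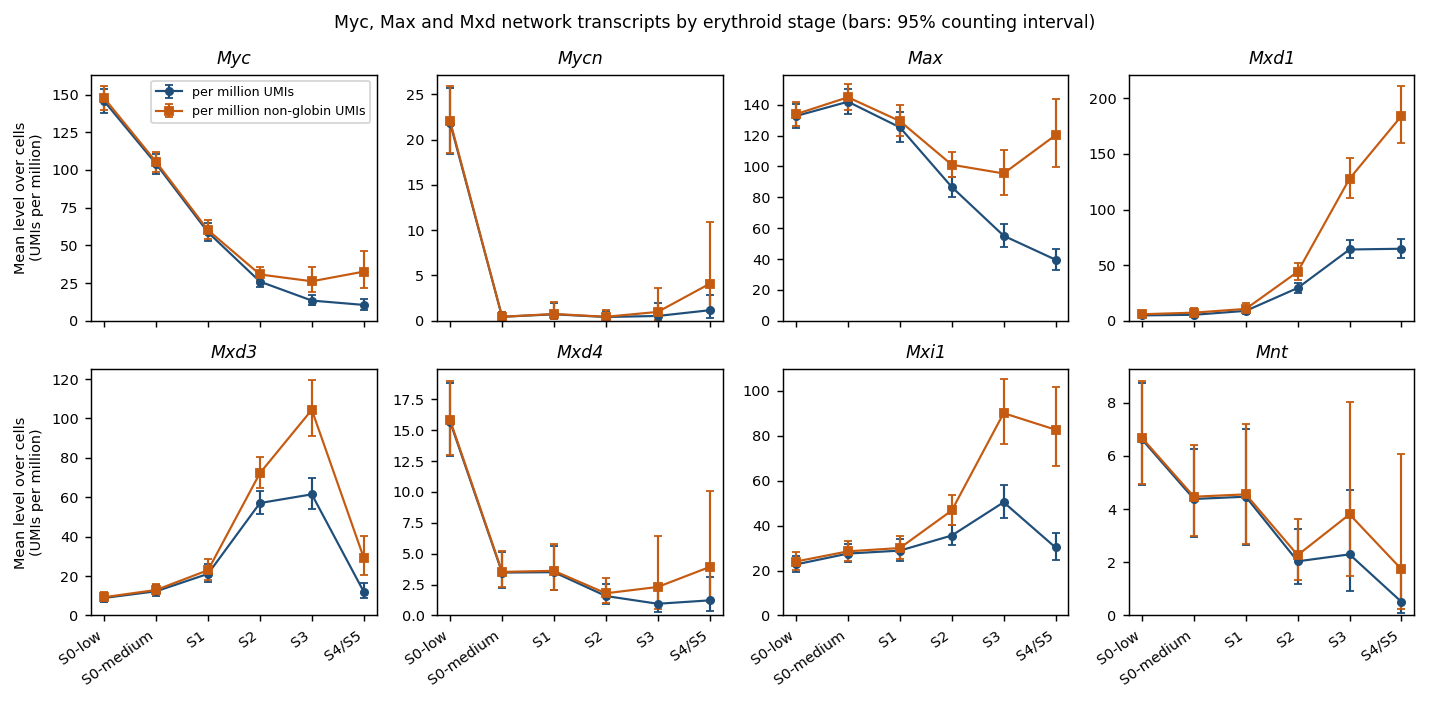
Mean level of each member in the 6 stages (x axis), in CPM (circles) and in non-globin CPM (squares), with 95% intervals for counting error; each panel has its own y axis from 0. *Myc* goes from 145 to 10.5 CPM while *Mxd1* goes from 4.82 to 64.8 CPM, and *Mxd3* stands at 57.1 and 61.5 CPM in S2 and S3 before 12.1 CPM in S4/S5.

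*Myc*, the main driver of growth in the network, had a mean of 145 CPM in S0-low (95% interval 138 to 154, 1799 UMIs), 104 CPM in S0-medium (97.5 to 111) and 58.6 CPM in S1 (52.6 to 65.0). It had 25.9 CPM in S2 (22.6 to 29.6), 13.4 CPM in S3 (10.2 to 17.2) and 10.5 CPM in S4/S5 (7.41 to 14.4, 45 UMIs). Within S0-low the cells of named non-erythroid clusters had 158 CPM (146 to 171) and the others 135 CPM (125 to 146). Each step down to S3 was larger than the counting error, and S3 and S4/S5 were not apart. The ratio was 0.403 from S0-low to S1 (0.357 to 0.453), 0.443 from S1 to S2 (0.372 to 0.526) and 0.515 from S2 to S3 (0.381 to 0.688).

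The late part of this decline depends on the scale. In non-globin CPM *Myc* stood at 148 in S0-low, 60.0 in S1 and 30.7 in S2, then at 26.2 in S3 and 32.6 in S4/S5, and the ratio from S2 to S3 was 0.853 (0.592 to 1.2). The decline through S2 was thus seen on both scales, while among non-globin transcripts no further difference was resolved after S2. In order of the 6 stages *Myc* had 1.19, 1.21, 0.686, 0.225, 0.103 and 0.0501 UMIs per cell. On that scale S0-low and S0-medium lay close together, although S0-low cells were shallower (medians of 6146 and 10282 UMIs).

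Cells with at least 1 *Myc* UMI, after every cell was thinned to 2000 UMIs, made up 22.5% of S0-low (20.4 to 24.6), 19.3% of S0-medium, 11.9% of S1, 4.46% of S2, 2.74% of S3 and 1.89% of S4/S5 (1.11 to 3.01). Without thinning the shares were 51.3%, 53.2%, 40.5%, 15.9%, 7.16% and 4.57%. As a reference outside the erythroid cells, 7.45% of hepatocyte-like cells (4.13 to 12.2, median depth 13055 UMIs) and 8.64% of macrophage-like cells (3.55 to 17.0, median depth 6306 UMIs) had a *Myc* UMI after thinning. The shares in S2 to S4/S5 were not above these references. The reference cells had *Myc* levels of their own, at 32.6 CPM in hepatocyte-like and 67.8 CPM in macrophage-like cells. The comparison therefore cannot tell free RNA in the droplets from low expression in S2 to S4/S5. Among these stages the S2 share (3.41 to 5.73) was above that of S4/S5.

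*Mycn*, the second MYC gene of the set, had 21.8 CPM in S0-low (18.4 to 25.7, 196 UMIs) and 0.435 in S0-medium (0.153 to 0.971). It had 0.710 CPM in S1, 0.416 in S2, 0.527 in S3 and 1.16 in S4/S5, with 2 to 6 UMIs in each stage from S0-medium on. In order of level no neighbours among these 5 stages were apart. The ratio of S0-medium to S0-low was 0.0199 (0.00691 to 0.0456).

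The *Mycn* of S0-low sat in the cells of the named non-erythroid clusters. The largest myeloid-like cluster also carried the early progenitor genes *Cd34*, *Plac8* and *Ifitm1*, so early progenitors and myeloid cells cannot be told apart there. The 678 S0-low cells in the named non-erythroid clusters had 48.0 CPM (40.5 to 56.6), and the other 832 had 0.484 CPM from 3 UMIs (0.0903 to 1.48). Over all kept cells *Mycn* had 74.2 CPM in the largest myeloid-like cluster (64.5 to 85.1), 45.0 in the megakaryocyte-like cells (36.7 to 54.7), 23.0 in the hepatocyte-like cells (15.9 to 32.2) and 0 in the 81 macrophage-like cells, which allows up to 6.72 CPM. Without the named non-erythroid clusters the S1 to S0-low ratio was 1.48 with 7 UMIs (0.211 to 11.7), so no *Mycn* difference among the remaining cells was measurable at this depth.

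*Max*, the shared partner, varied little in the early stages. It had 133 CPM in S0-low (125 to 141), 142 in S0-medium (134 to 150) and 125 in S1 (116 to 135), then 86.7 in S2 (80.3 to 93.4), 55.1 in S3 (48.1 to 62.8) and 39.6 in S4/S5 (33.2 to 46.8). S0-low was apart from neither of the other early stages, S1 was slightly below S0-medium (0.883, 0.801 to 0.973), and each later stage was below the one before. The ratio from S1 to S2 was 0.692 (0.620 to 0.771), close to the 0.733 of the median gene, and the ratio from S2 to S3 was 0.635 (0.544 to 0.740), beside 0.588 for the median gene.

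Among non-globin transcripts *Max* had 129 CPM in S1, 101 in S2, 95.4 in S3 and 120 in S4/S5 (99.7 to 144), so the direction from S3 to S4/S5 was reversed on that scale (1.26, 0.990 to 1.6). *Myc* and *Max* therefore parted: from S0-low to S3 the CPM ratio was 0.0919 for *Myc* (0.0698 to 0.119) and 0.415 for *Max* (0.358 to 0.479), beside a median gene at 0.309. On the non-globin scale the same ratios were 0.177 and 0.713, beside 0.510.

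*Mxd1*, a MAX partner known from terminally differentiating cells, had 4.82 CPM in S0-low (3.30 to 6.79, 40 UMIs), 5.35 in S0-medium (3.67 to 7.54) and 8.90 in S1 (6.17 to 12.4). It had 29.5 CPM in S2 (25.2 to 34.3), 64.1 in S3 (56.0 to 73.0) and 64.8 in S4/S5 (56.4 to 74.0). Neighbours among the first 3 stages were not apart, S2 was above S1, S3 above S2, and S3 and S4/S5 were level. The S2 to S1 ratio of 3.31 (2.28 to 4.93) was above those of 99.5% of all genes compared, and the S3 to S2 ratio of 2.18 (1.77 to 2.67) above those of 98.9%.

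From S0-low to S3 *Mxd1* was 13.3 times higher in CPM (9.17 to 19.9) and 21.9 times higher among non-globin UMIs (13.9 to 36.3). The difference between S0-low and S1, 1.85 fold (1.11 to 3.08), was 1.04 fold with stages set on log10 antibody counts. On the non-globin scale *Mxd1* went on from 128 in S3 to 184 in S4/S5 (ratio 1.44, 1.18 to 1.76), while in UMIs per cell it went from 0.308 to 0.256 (ratio 0.832, 0.693 to 0.998). Without the embryonic globin cluster S4/S5 had 92.1 CPM and S3 had 66.1 CPM.

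A *Mxd1* UMI was found in 0.861% of S0-low cells thinned to 2000 UMIs (0.459 to 1.47), in 0.854% of S0-medium, 1.96% of S1, 5.54% of S2, 11.6% of S3 (9.49 to 13.9) and 10.6% of S4/S5. Without thinning the shares ran from 2.58% in S0-low to 25.2% in S3 and 21.2% in S4/S5. The hepatocyte-like cells gave 0 of 188 cells after thinning, which allows up to 1.94%, and the macrophage-like cells gave 1 of 81 (1.23%, 0.0313 to 6.69). S3 and S4/S5 were above both references. S2 (4.36 to 6.93) was above the hepatocyte-like cells but not apart from the few macrophage-like cells, and S0-low, S0-medium and S1 (1.02 to 3.40) were apart from neither.

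*Mxd3*, the MXD family member known from proliferating cells in S phase, had 8.91 CPM in S0-low (6.89 to 11.3), 12.3 in S0-medium (9.80 to 15.2) and 21.2 in S1 (16.8 to 26.2). It had 57.1 CPM in S2 (51.4 to 63.3), 61.5 in S3 (53.9 to 69.9) and 12.1 in S4/S5 (8.71 to 16.4, 44 UMIs). It was thus a peak, with S2 and S3 level and both ends low. The ratio was 2.37 from S0-low to S1 (1.70 to 3.33), 2.70 from S1 to S2 (2.12 to 3.47) and 0.197 from S3 to S4/S5 (0.138 to 0.275).

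The last ratio put *Mxd3* among the lowest 0.703% of the genes compared between S3 and S4/S5, and *Mxd3* was lower in S4/S5 on the other scales too, at 0.281 per non-globin UMI and 0.156 in UMIs per cell. From S2 to S3 the direction depended on the scale, with 1.08 in CPM (0.910 to 1.27), 1.44 per non-globin UMI (1.21 to 1.72) and 0.920 in UMIs per cell. In cells thinned to 2000 UMIs the share with a *Mxd3* UMI was 1.72% in S0-low, 10.1% in S2, 10.3% in S3 and 2.0% in S4/S5, beside 2.13% of hepatocyte-like cells (0.583 to 5.36) and 1.23% of macrophage-like cells (0.0313 to 6.69).

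*Mxd4*, a further MXD repressor, had 15.7 CPM in S0-low (12.9 to 18.8, 140 UMIs), 3.47 in S0-medium (2.24 to 5.15) and 3.51 in S1 (2.05 to 5.60). It had 1.58 CPM in S2, 0.949 in S3 and 1.22 in S4/S5, with 5 UMIs in each of the last 2 stages. As with *Mycn*, the S0-low level was unevenly held: 27.7 CPM in the cells of named non-erythroid clusters (22.2 to 34.2) and 5.83 in the others (3.81 to 8.54). Over all kept cells the highest level of a cluster was in a group of 60 cells led by *Mest*, *Sparc* and *Dcn*, with 97.7 CPM (70.3 to 132), and macrophage-like cells had 41.8 CPM (24.5 to 66.7). The S1 to S0-low ratio of 0.224 (0.126 to 0.374) was 0.641 once all clusters of other lineages were left out.

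*Mxi1*, the MAX partner also called Mxd2, had 22.7 CPM in S0-low (19.5 to 26.3), 27.5 in S0-medium (23.7 to 31.8) and 28.9 in S1 (24.2 to 34.1). It had 35.6 CPM in S2 (31.2 to 40.3), 50.3 in S3 (43.3 to 58.2) and 30.2 in S4/S5 (24.6 to 36.8). S3 stood above S2, and in order of level no other neighbours were apart. The S3 to S0-low ratio was 2.22 (1.79 to 2.74), with the median gene at 0.309.

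On the non-globin scale *Mxi1* had 46.7 CPM in S2, 90.0 in S3 and 82.6 in S4/S5, and the S2 to S1 ratio was 1.56 (1.24 to 1.96), while in UMIs per cell it was 0.810 (0.672 to 0.978). The S4/S5 to S3 ratio of 0.600 in CPM (0.466 to 0.771) was 0.918 per non-globin UMI (interval up to 1.2). Without the embryonic globin cluster *Mxi1* had 46.5 CPM in S4/S5 and 53.5 in S3.

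*Mnt*, a MAX partner that is broadly expressed in many tissues, had the fewest UMIs of the 8 members. It had 6.61 CPM in S0-low (4.89 to 8.74, 64 UMIs), 4.38 in S0-medium (2.95 to 6.25) and 4.46 in S1 (2.66 to 7.02). It had 2.03 CPM in S2, 2.30 in S3 and 0.513 in S4/S5, from 21, 9 and 3 UMIs. The S1 to S0-low ratio was 0.675 (0.372 to 1.17), and no later step had the 50 UMIs needed for a comparison.

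**Figure D2:**
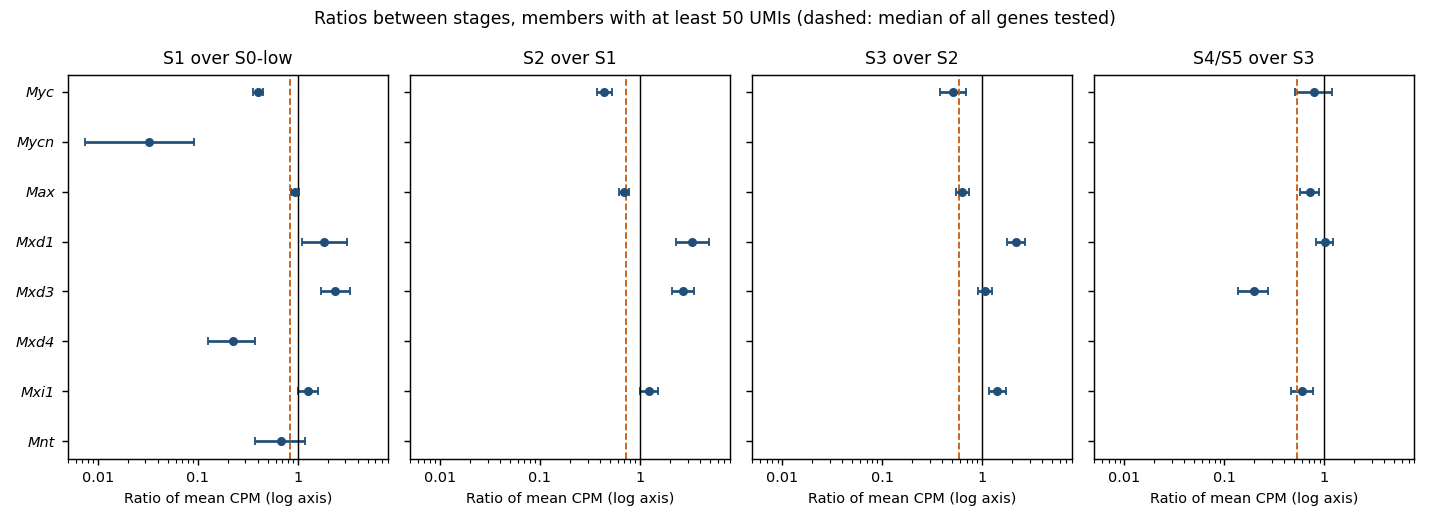
Ratio of mean CPM (log x axis) for S1 over S0-low, S2 over S1, S3 over S2 and S4/S5 over S3. Shown are members with at least 50 UMIs in the stages compared, with 95% counting intervals. The solid line marks no difference and the dashed line the median of all genes. *Mxd1* and *Mxd3* lie right of both lines from S1 to S2 (3.31 and 2.70), and *Mxd3* lies left of both from S3 to S4/S5 (0.197).

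To see the order of these differences more finely, the lineage-low cells were cut into 20 groups, 10 of Ter119-low cells by CD71 and 10 of the other cells by Ter119, with 317 to 325 cells each. In non-globin CPM *Myc* had 157 in the first group, 164 in the second and 49.5 in the tenth, and between 22.8 and 36.0 in groups 11 to 20. Cells of named non-erythroid clusters made up 90.6% of the first group and 73.6% of the second. *Mxd3* had at most 15.3 through group 9, 30.9 in group 10 and its highest level, 104, in group 15 (median Ter119 count 86), with 42.7 in group 20. *Mxd1* had at most 14.7 through group 10, 18.9 in group 11, 136 in both group 16 and group 17 and 181 in group 20 (144 to 225). *Mxi1* stood between 17.1 and 33.0 through group 10, reached 103 in groups 17 and 18 and had 56.8 in group 19 and 77.5 in group 20.

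**Figure D3:**
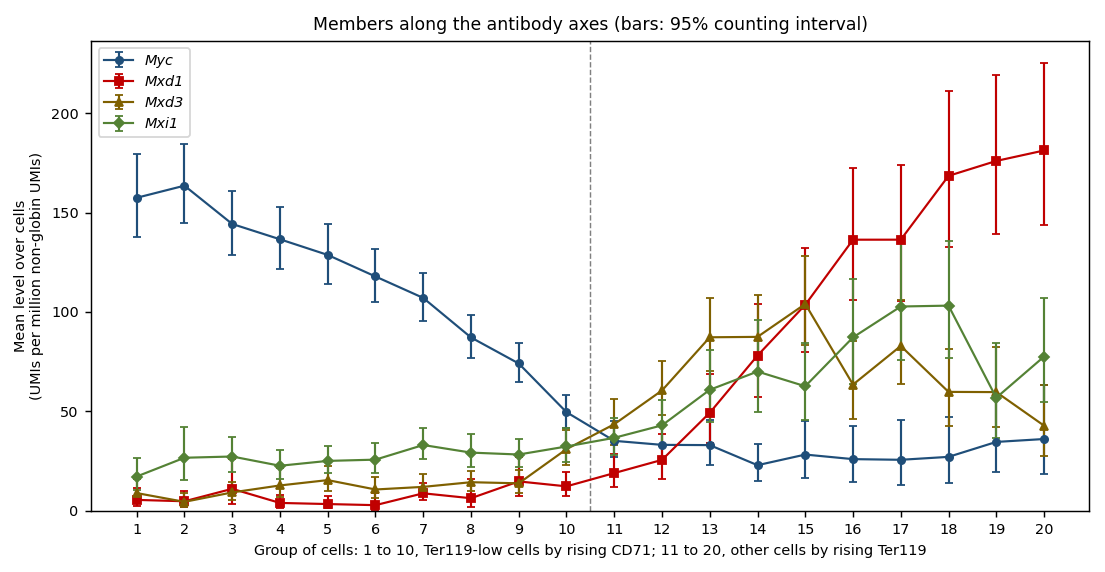
Level of 4 members (y axis, non-globin CPM, 95% counting intervals) in 20 groups of cells, ordered by CD71 in Ter119-low cells (groups 1 to 10) and by Ter119 in the other cells (11 to 20). *Myc* declines within the Ter119-low cells to 49.5, *Mxd3* peaks at 104 in group 15, and *Mxd1* reaches 181 in group 20.

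Over the same 20 groups the Pearson correlation of log2 levels was -0.95 for *Myc* and *Mxd3*, -0.84 for *Myc* and *Mxd1*, 0.93 for *Mxd1* and *Mxi1*, and 0.94 for *Mycn* and *Mxd4*. All groups come from the same library and differ together in depth and globin share, so these values describe the groups. Named non-erythroid cells made up 90.6%, 73.6% and 35.2% of groups 1 to 3 and at most 9.75% of any later group, and the part of this in the likeness of *Mycn*, *Mxd4* and their closest genes was not tested. The genes most like *Myc* were *Qdpr* (0.98), *Znrd1* (0.98) and *Gorasp2* (0.98), out of 6363 genes with at least 500 UMIs. *Max* was most like *Slc35a4* (0.95), *L3mbtl2* (0.94) and *Nop9* (0.94). *Mxd1* was most like *Sec62* (0.996), *Ube2c* (0.995) and *Runx1t1* (0.994), and *Mxd3* was most like *Cdkn2c* (0.98), *Hist1h4i* (0.98) and *Casc5* (0.98).

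*Mxi1* was most like *Napa* (0.96), *Gm15800* (0.96) and *Cln8* (0.96). *Mycn* was most like *Hmga2* (0.96), *Klk8* (0.96) and *Ap3s1* (0.96), and *Mxd4* shared *Klk8* (0.95) and *Hmga2* (0.95) with it, beside *Runx1* (0.95). *Mnt* had the weakest best matches, *Zfp36l2* (0.89), *Fem1c* (0.88) and *B9d2* (0.88).

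*Myc* and *Mxd1* were also looked at in the same cells. In S0-low 753 of 1510 cells had a *Myc* UMI and no *Mxd1* UMI, 18 had *Mxd1* only and 21 had both. In S2 the numbers were 176 with *Myc* only, 161 with *Mxd1* only and 30 with both, of 1299 cells, and in S3 they were 41, 192 and 19 of 838 cells. These counts depend on how well each transcript is captured, so they set no stage at which one gene overtakes the other. At these depths most S2 cells (932 of 1299) had neither, so cells without a UMI cannot be taken as cells without the transcript.

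Within a stage the members were compared between cells with a high and a low share of cell cycle transcripts (27 genes, none of them a member; the highest and lowest cells of each stage by that share). *Mxd3* was higher in the cycle-high cells of all 6 stages. In S3 it had 128 CPM in the 280 cycle-high cells and 10.5 CPM in the 280 cycle-low cells, a ratio of 12.2 (7.06 to 22.9), at equal median Ter119 counts of 129.5 and median depths of 4736.5 and 3719.5 UMIs. Its ratio was 2.24 and 2.27 in the S0-low and S0-medium stages, 3.53 in S1, 3.26 in S2 (2.40 to 4.47) and 3.67 in S4/S5 (1.64 to 9.22). Median CD71 counts were higher in the cycle-high cells of all 6 stages, at 1406.5 against 1208 in S3 and 98.5 against 40.5 in S0-low. In S1 the CD71 medians were 1323.5 against 996. Within S0-low *Mxd3* had 6.76 CPM in cells of named non-erythroid clusters (4.37 to 10.0) and 10.7 CPM in the others (7.67 to 14.4). How these cells divide between the cycle-high and cycle-low cells of S0-low was not counted. The part of CD71 and of cell class in the *Mxd3* ratios was not tested.

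*Myc* showed the opposite in the middle stages, with 69.3 CPM in cycle-high and 122 in cycle-low cells of S0-medium (ratio 0.570, 0.472 to 0.685), 0.453 in S1 (0.333 to 0.612) and 0.367 in S2 (0.241 to 0.548). In S0-low its ratio was 1.06 (0.921 to 1.22). The cycle-high cells of these stages were also further along by antibody, with median Ter119 counts of 10 against 6 in S0-medium, 17 against 11 in S1 and 62 against 43 in S2. They were shallower too, with median depths of 6426 against 9671 UMIs in S0-medium, 8119.5 against 10629 in S1 and 5027 against 6698 in S2, and the part of this in the *Myc* difference was not tested. *Mxi1* was 2.78 times higher in the cycle-high cells of S3 (1.83 to 4.34). The direction of *Mxd1* differed by stage. It was higher in the cycle-high cells of S1 (2.81, 1.12 to 7.76, 31 UMIs) and S2 (1.64, 1.13 to 2.42). It was lower in those of S3 (0.677, 0.488 to 0.936) and S4/S5 (0.620, 0.445 to 0.860). In non-globin CPM the intervals of *Mxd1* in S1 (0.796 to 10.1) and S2 (0.955 to 2.20) held 1.

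**Figure D4:**
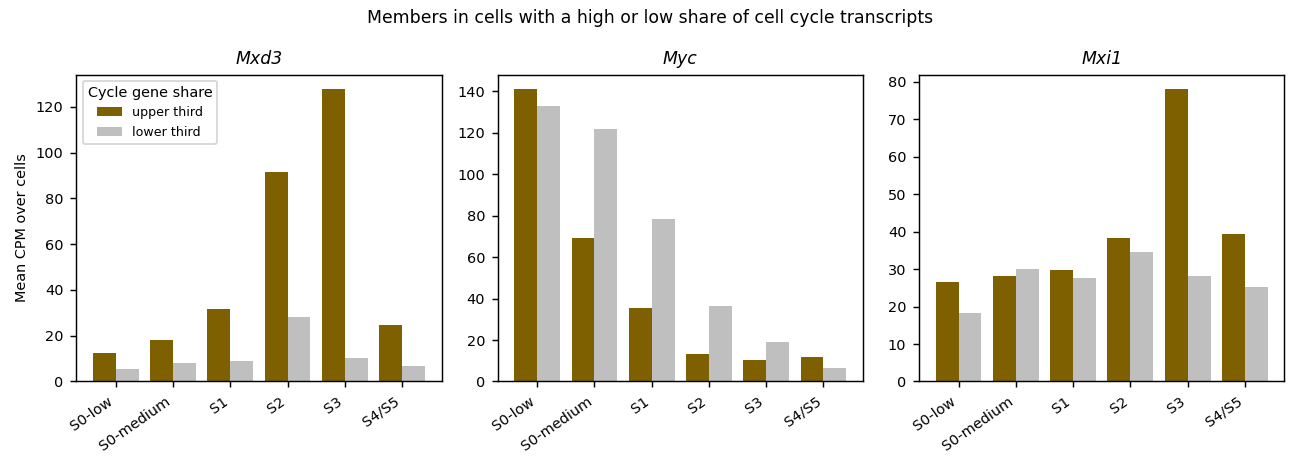
Mean CPM (y axis, from 0) of *Mxd3*, *Myc* and *Mxi1* in the cells of each stage with the highest (dark bars) and lowest (grey bars) share of cell cycle transcripts; no error bars are drawn. *Mxd3* differs most in S3, with 128 against 10.5 CPM, and *Myc* is lower in the cycle-high cells of S0-medium, S1 and S2.

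The cKit antibody, which marks early progenitors, divided the S0-low cells into an upper and a lower group of 755 cells. *Myc* had 191 CPM in the upper and 99.6 CPM in the lower group, a ratio of 1.92 (1.70 to 2.18). *Mycn* had 32.9 and 10.7 CPM, a ratio of 3.06 (2.07 to 4.65), and *Mxd3* had 5.05 and 12.8 CPM, a ratio of 0.395 (0.234 to 0.656). The groups also differed in depth (medians of 8913 and 4681 UMIs) and in their share of named non-erythroid cells (53.2% and 36.6%). Among the S0-low cells outside those clusters the ratio was 1.83 for *Myc* (1.55 to 2.18), 0.491 for *Mxd3* (0.260 to 0.922) and 0.982 for *Max* (0.848 to 1.14). There *Mycn* had 3 UMIs, too few to compare.

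Erythroid output was set beside the members through the α-globin share of each cell, within a stage and in non-globin CPM. In S2 *Mxd1* had 90.2 in the 433 cells with the most α-globin and 13.9 in the 433 with the least, a ratio of 6.51 (4.46 to 9.57), and *Myc* had 19.6 and 44.1, a ratio of 0.444 (0.250 to 0.737). The same cells differed in Ter119 (median counts of 67 and 37) and in depth (medians of 3926 and 9849 UMIs). In S1 the Ter119 medians were 17 and 11 and the depths 6204 and 12617.5 UMIs. In S3 they were 140.5 and 111, with depths of 3886.5 and 6286.5 UMIs. The part of these differences in the ratios was not tested. In S1 the *Myc* ratio was 0.385 (0.277 to 0.525), and in S3 it was in the other direction, with 40.8 and 21.1, a ratio of 1.94 (1.01 to 3.54, 76 UMIs). In S3 *Mxd1* again had more in the α-globin-high cells (3.26, 2.30 to 4.64), whereas *Mxd3* had less (0.516, 0.328 to 0.789) after having more in S1 (4.44) and S2 (3.21).

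The other genes of the pathway were described by lists. Of 31 genes known to be induced by MYC with enough UMIs, 5 were lower in S1 than in S0-low, 25 were lower in S2 than in S1 and 30 were lower in S3 than in S2, against 32.4%, 38.9% and 63.7% of all genes. Their median ratios were 0.874, 0.462 and 0.412 beside 0.84, 0.733 and 0.588 over all genes. From S0-low to S1 the share lower was thus below that of all genes, and 1 gene was higher, *Odc1*, ornithine decarboxylase (1.53, 1.46 to 1.60). Those furthest from 1 from S1 to S2 were *Srm*, spermidine synthase (0.301), and *Polr1b*, a subunit of RNA polymerase I (0.342). In non-globin CPM 22 of 31 were lower from S1 to S2, against 26.4% of all genes, and 19 of 31 from S2 to S3, against 26.9%. From S3 to S4/S5 10 of 28 were higher on that scale, against 10.3% of all genes, and 1 was lower, against 22.6%. In CPM none of the 28 was higher at this step, against 1.06% of all genes. The lower ones in CPM included *Odc1* (0.314) and *Ran* (0.414), against 72.5% of all genes. The embryonic globin cluster held 44.3% of S4/S5 cells and 7.28% of S3 cells, and the part of this was not tested.

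Of the genes known to be repressed by MYC, 3 of 4 were higher in S2 than in S1, against 5.23% of all genes, namely *Cdkn1a* (2.33, 1.29 to 4.48) and *Cdkn1b* (1.97, 1.21 to 3.32), which encode inhibitors of cyclin-dependent kinases, and *Gadd45a* (1.86, 1.69 to 2.05), a growth arrest gene, which was 2.40 times higher again in S3 than in S2. The list did not move 1 way at the other steps. From S0-low to S1 *Gadd45a* was 2.93 times higher (2.58 to 3.34). At that step *Cdkn1a* was lower (0.353, 0.184 to 0.632), and *Ndrg1*, a stress-induced gene, was at 0.156 (0.0533 to 0.364). From S2 to S3 *Cdkn1a* was lower (0.498, 0.228 to 0.982) and *Cdkn1b* was 2.23 times higher (1.61 to 3.11). The coactivator genes of MYC were lower from S1 to S2 in 6 of 9 cases, against 38.9% of all genes, with *Kat2a*, a histone acetyltransferase, at 0.329 and *Ruvbl2*, a helicase, at 0.380. The corepressor genes that the MXD and MNT proteins use were lower in 2 of 10 cases and higher in 1 over the same step, with *Sap30* at 0.591 and *Rbbp4* at 1.55. These counts stand against 38.9% and 5.23% of all genes. From S3 to S4/S5 8 of the 10 were lower, near the 72.5% of all genes, with a median ratio of 0.489 beside 0.532 over all genes.

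Of the genes for turnover and control of the MYC protein, 1 of 9 was higher from S1 to S2, the kinase gene *Pim1* (1.91, 1.75 to 2.08), and 4 were lower, against 5.23% and 38.9% of all genes, with *Zbtb17*, the partner of MYC in repression, at 0.462. Of the other MAX and MLX genes, *Mga*, itself a MAX partner, was lower at 4 steps, with 0.518 from S0-low to S1, 0.510 from S1 to S2, 0.484 from S2 to S3 and 0.542 (0.252 to 1.09) from S3 to S4/S5. *Mlx* was at 0.908, 0.693 and 0.862 over the first 3 of these steps and at 0.296 (0.172 to 0.490) over the last. The median gene was at 0.84, 0.733, 0.588 and 0.532 over these 4 steps. The 27 cycle genes were higher in S1 than in S0-low in 13 cases, against 8.05% of all genes, and lower in S4/S5 than in S3 in 25, against 72.5%, with median ratios of 1.44 and 0.374. *Mxd3* had the same directions at these steps. From S2 to S3, where *Mxd3* was at 1.08, 10 cycle genes were lower, against 63.7% of all genes, among them *Ung*, a uracil-DNA glycosylase (0.356), and *Mcm4*, a subunit of the replicative helicase (0.369), and 1 was higher, the mitotic gene *Ube2c* (1.72). From S1 to S2, where *Mxd3* was at 2.70, the cycle genes did not move 1 way. *Nusap1* (2.36) and *Ube2c* (1.99) were higher there and *Ung* was lower (0.550).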

How the data were processed

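The cDNA library of the 10x 3′ platform was mapped to mm10 with Cell Ranger by the authors, who deposited raw UMI counts per gene and cell. They also deposited raw counts per antibody and cell, and the submitters' processing notes name Seurat. Both libraries shared 7863 cell barcodes. Kept cells had between 300 and 5000 genes and no more than 9% of mitochondrial UMIs, and 128 cells (1.63%) called as doublets by Scrublet, with 6% expected, were left out.

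Antibody counts were scaled by centered log ratio. Stages were set by k-means with 3 classes of Ter119, 3 of CD71 in Ter119-low cells and 2 in Ter119-high cells, after cells with over 95.8 summed counts of 5 lineage antibodies were left out, and 213 lineage-low cells fell in no stage. These gates stand in for the positions of the study's gates. The 8 members, the gene lists and the rules for naming genes were chosen with earlier results of these data known. Named were the members, the list genes furthest from 1 in ratio (up to 2 a list and comparison, with at least 50 UMIs) and the 3 genes most like each member over 20 groups by log2 of non-globin CPM plus 10. *Gadd45a* from S1 to S2, *Mlx* and *Odc1* from S0-low to S1, *Cdkn1a* outside S1 to S2 and *Ube2c* from S2 to S3 were named outside this rule, after their values were seen. So were *Ung*, *Rrm2*, *Ccnb1*, *Cenpf* and *Mki67* from S1 to S2.

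Clusters came from 2000 variable genes without the members, 16 principal components, 30 neighbours and the Leiden method at resolution 0.8. A name needed at least 3 markers of a class among the top 10 genes and more than of any other class, a rule set after the clusters were seen. For shares, each cell was thinned to 2000 UMIs, and no cell was shallower.

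With 1 library there is no replicate and no test. Intervals are 95% intervals for counting error only, gamma type for levels, conditional on effective counts for ratios and Clopper-Pearson for shares. On simulated counts of S2 over S1 (8217 genes, 200 changed), the direction was recovered for 200 and the true ratio lay in the interval for 190. For S3 over S2 (7604 genes) these numbers were 200 and 188. These counts were drawn from the Poisson model that the intervals assume, with no added spread between cells. Changes as small as 1.5 fold were not tried. The numbers therefore check the procedure and cannot show how well the intervals hold for real cells. The gates put 99.7% of 5922 simulated lineage-low cells in the stage they were drawn for. These cells were drawn in tight groups close to the stage medians found here. The result therefore checks the procedure and cannot show how well the gates divide real cells. With log10 antibody counts S0-low held 609 cells and S3 1883, against 1510 and 838 in the main setting. Gene positions and promoter windows are from RefSeq, GRCm38.p6. Scanpy 1.11.5, leidenalg 0.10.2, scikit-learn 1.9.0, scipy 1.17.1, numpy 2.4.6, matplotlib 3.10.9 and pandas 2.3.3 were used in Python 3.11.15 with random seed 7.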

Additional observations from a re-analysis of the deposited data

How the results depend on the processing

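No paired analysis was possible because the data are 1 library with no replicate, and none could be left out in turn. Of 322 member ratios under 14 alternatives, 263 stayed within their main counting interval, 56 moved out of it and 3 reversed, which means that a ratio whose interval excluded 1 came to the other side of 1. *Max* from S3 to S4/S5 was 1.26 with globin UMIs left out of the denominator, and *Mycn* from S0-low to S1 was 1.48 without the named non-erythroid clusters and 2.23 (6 UMIs) without all clusters of other lineages. The 6 ratios whose main interval held 1 came to the other side of 1 in 16 values, among them *Max* from S0-low to S1 (1.30) and *Mxi1* from S1 to S2 (0.810) in UMIs per cell and *Myc* from S3 to S4/S5 (1.24) with globin left out.

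Of 144 counts of members past 1.5 fold, 116 were within 1.5 times the main count. From S0-low to S1 the 2 higher members became 1 at a fold of 2, at a minimum of 200 UMIs and with no lineage filter, and the 3 lower became 1 without all clusters of other lineages. From S1 to S2 the 1 lower became 4 with no minimum or CD71 terciles, and 2 in UMIs per cell, with antibodies scaled within each cell, with a Gaussian mixture, with no lineage filter or with doublets kept. From S2 to S3 the 1 higher became 3 against the median of all genes and 2 with globin left out, with log10 antibody counts or without the embryonic globin cluster. The 2 lower became 0 at a fold of 2, against the median or with globin left out, and 4 with log10 antibody counts. From S3 to S4/S5 the 0 higher became 1 with no minimum, against the median or with no lineage filter. The 2 lower became 1 at a fold of 2, against the median, with globin left out or without the embryonic cluster, and 4 in UMIs per cell or with pooled UMIs. The cause was not tested. The alternatives that left out the embryonic globin cluster or all clusters of other lineages were chosen after seeing the data.

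Low counts limit *Mycn*, *Mxd4* and *Mnt* after S0-low. Differences between embryos, libraries or gates are not covered by any interval, and free RNA was not subtracted.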

Other observations

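Among all kept cells of the named non-erythroid clusters, 678 of which lay in S0-low, the members differed by cell class. In the 398 megakaryocyte-like cells *Myc* had 146 CPM (95% counting interval 132 to 161), *Mxd1* 19.0 (13.0 to 26.8) and *Mxd3* 6.46 (3.8 to 10.3). In the 610 myeloid-like cells *Myc* had 141 CPM (129 to 154), *Mxd1* 12.3 (8.35 to 17.5) and *Mxi1* 30.1 (24.2 to 36.9). The 81 macrophage-like cells, which express the complement genes *C1qa*, *C1qb* and *C1qc*, had 67.8 CPM of *Myc* (46.2 to 96.1), 144 of *Max* (111 to 185) and 47.5 of *Mxi1* (29.1 to 73.0). The 188 hepatocyte-like cells had 32.6 CPM of *Myc* (23.1 to 44.6), 41.0 of *Max* (31.4 to 52.6) and 7.02 of *Mxi1*. *Mycn* was at 23.0 CPM in the hepatocyte-like cells and at 0 of 81 macrophage-like cells, so the non-erythroid classes did not share 1 level of this gene.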
